A study of Mus musculus with 16 samples.

Results

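The microRNAs described here are mmu-miR-193, mmu-miR-193b and mmu-miR-365 (miR-193, miR-193b and miR-365 below), 3 of the 566 mouse miRNAs on the array, picked by their names because their genes lie in 2 paired loci. They were chosen with earlier values of these data known, namely the lower levels of miR-193 and miR-365 in Ha-ras tumours than in untreated control liver. For that reason the Ha-ras values below are a description without a test, and so are the 2 comparisons that share arrays with them. RNA from 16 liver samples of C3H/HeJ mice (all males, of an inbred strain in which liver tumours are frequent) was measured on one-colour Agilent arrays, 1 array per sample. There were 7 Ctnnb1-mutated tumours and 3 non-tumour control livers from mice given phenobarbital, a liver tumour promoter, and 3 Ha-ras-mutated tumours and 3 non-tumour control livers from mice given water in its place. Ctnnb1 encodes beta-catenin, through which Wnt signals reach transcription. Ha-ras encodes a GTPase upstream of the MAP kinases.

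Per the design text, mice were injected once with diethylnitrosamine (DEN), a liver carcinogen, at 10 or 90 µg per g of body weight and at 2 or 6 weeks of age, and the diet that began 2 weeks later held 0.05% phenobarbital or none for 28 to 36 weeks. The labels give the treatment as 27 weeks for each group and, in a protocol that differs from the design text, 28 days of dosing through drinking water. Sources used here do not settle which dose, age and duration applied to which sample, whether the controls received DEN, or whether each sample came from a mouse of its own. So a p-value here reflects only the scatter among these samples, which may be technical. The controls without phenobarbital are called untreated controls below, for the missing phenobarbital only.

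A miRNA is cut from a hairpin in its primary transcript, and bases 2 to 8 of the mature strand, the seed, select most of the messenger RNAs that it represses. In mammals the miR-193 and miR-365 genes stand next to each other at 2 places in the genome, an arrangement from which several mature miRNAs can be made from 1 primary transcript. The pair has been studied for its part in brown fat and muscle differentiation, and miR-193a, miR-193b and miR-365 have each been reported to repress genes that drive cell growth, cyclin D1 among them.

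The mature sequences are shown first because they decide what the array can tell apart. They come from RefSeq (GRCm38.p6), are written 5′ to 3′, and carry their seeds in capitals. The array name miR-193 was matched to miR-193a-3p, since the array lists the other arm as miR-193* and RefSeq gives mir-193 as an older name of Mir193a, and miR-193b and miR-365 were matched to their 3p arms.
miR-193a-3p: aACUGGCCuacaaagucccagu
miR-193b-3p: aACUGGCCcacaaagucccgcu
miR-365-3p: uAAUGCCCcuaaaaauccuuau
miR-193a-3p and miR-193b-3p share 1 seed and differ at 3 of 22 bases, which are U9C, A20G and G21C when counted from the 5′ end of miR-193a-3p. These were the only 2 of 1679 mature names in the RefSeq table with that seed, and miR-365-3p was the only one with its own. miR-365-3p is poor in G and C, with 7 of 22 bases, against 11 in miR-193a-3p and 13 in miR-193b-3p.

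The hairpins are shown because they explain why 1 array name can stand for 2 genes. Mature 3p strands are in capitals, and each hairpin lies on the plus strand.
Mir193a, chr11:79711969-79712034: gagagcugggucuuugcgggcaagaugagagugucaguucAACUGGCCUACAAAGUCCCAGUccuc
Mir365-2, chr11:79726400-79726511: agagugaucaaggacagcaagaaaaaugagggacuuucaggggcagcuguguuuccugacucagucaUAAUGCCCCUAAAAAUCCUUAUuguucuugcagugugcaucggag
Mir193b, chr16:13449523-13449601: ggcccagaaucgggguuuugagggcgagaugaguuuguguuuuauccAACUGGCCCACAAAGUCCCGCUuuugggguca
Mir365-1, chr16:13453840-13453926: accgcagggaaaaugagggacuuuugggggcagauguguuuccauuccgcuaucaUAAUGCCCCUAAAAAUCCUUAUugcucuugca
The hairpins of Mir193a and Mir365-2 are separated by 14365 bases on chromosome 11, and those of Mir193b and Mir365-1 by 4238 bases on chromosome 16. The mature miR-365-3p of the 2 loci is identical, so that the miR-365 signal sums whatever both loci made, while miR-193 and miR-193b have probes of their own.

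Values below are levels, that is, scaled background-subtracted signals on the log2 scale averaged over the 2 probes of a miRNA, with values under a common floor of 4.63 set to it. Between 83 and 117 miRNAs were detected on an array, where detected means that more than 0.5 of the spots of at least 1 probe were well above background. Correlations of levels between arrays of a group, across 96 miRNAs, ran from 0.926 to 0.993. miR-193 and miR-365 were detected on all 16 arrays. All 7 Ctnnb1 tumours shared slide 1 with Ha-ras tumour replicate 1, and the other arrays lay on slides 2 and 3.

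miR-193b, the chromosome 16 member, was detected on 0 of 16 arrays, with neither of its 2 probes well above background, and so was left out of the tests. Its scaled signals lay between -10.9 and 2.36 for one probe and between -7.30 and 12.1 for the other, where 24.8 is the floor on this linear scale. The values of 10.5 and 12.1 belonged to Ha-ras tumour replicates 1 and 2, and the same probe was at -5.81 in replicate 3 and below 0 on the other 13 arrays. None of these reached detection. The other arm of the chromosome 11 hairpin, miR-193*, was detected on 0 of 16 arrays by its 4 probes. The miR-193b probes thus stayed at background on arrays where miR-193, 3 bases different, was measured.

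**Figure D1:**
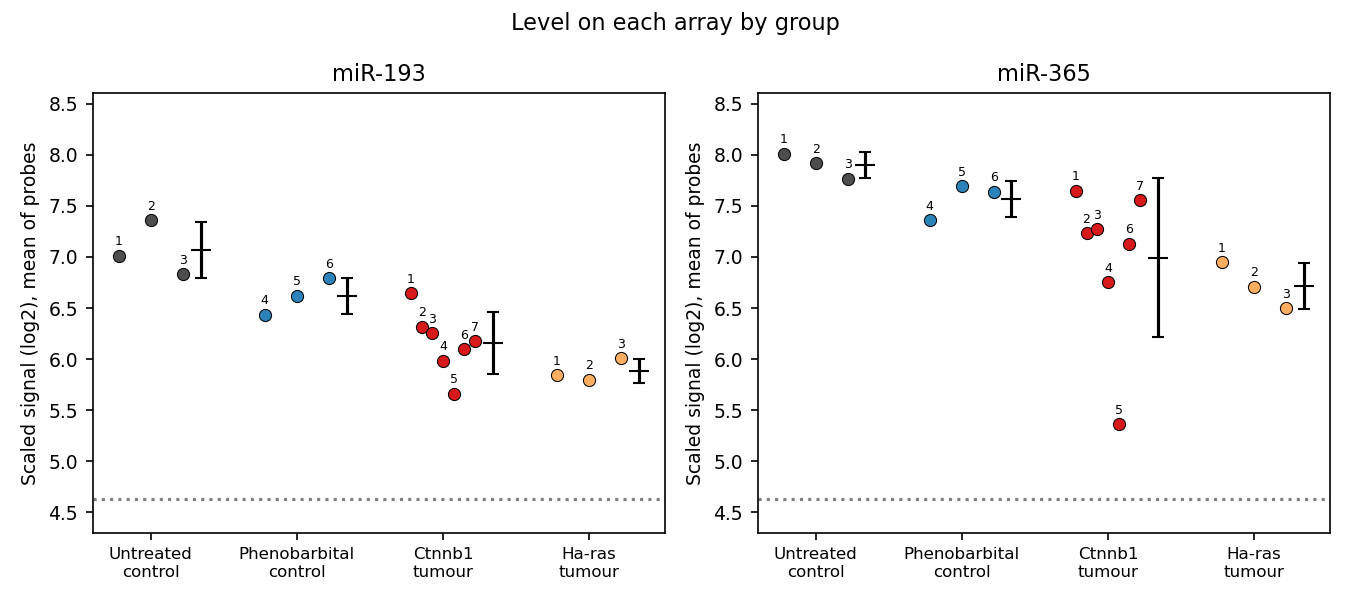
Level of miR-193 (left) and miR-365 (right) on each array, on the log2 scale; points are arrays numbered by replicate, the bar beside them is the mean ± SD of the group, and the dotted line is the floor of 4.63. Untreated controls stand highest for both miRNAs, phenobarbital controls next, and Ctnnb1 tumour replicate 5 is the lowest array for each.

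miR-193 was highest in untreated controls, at 7.01, 7.36 and 6.83 in replicates 1, 2 and 3 (mean 7.07 ± 0.27, SD, n = 3). Phenobarbital controls were at 6.44, 6.62 and 6.79 in replicates 4, 5 and 6 (6.61 ± 0.18, n = 3). The 7 Ctnnb1 tumours ran from 5.66 in replicate 5 through a median of 6.17 to 6.64 in replicate 1 (6.16 ± 0.30, n = 7). Ha-ras tumours were lowest by mean, at 5.84, 5.80 and 6.01 (5.88 ± 0.11, n = 3). In this order of groups the untreated and phenobarbital controls did not overlap in the mean of both probes, though they did by the brighter probe alone (given below), while 1 Ctnnb1 tumour, replicate 1, lay within the range of the phenobarbital controls, and the Ha-ras tumours lay within the range of the Ctnnb1 tumours.

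miR-365 followed the same order of means. Untreated controls were at 8.01, 7.92 and 7.77 in replicates 1, 2 and 3 (7.90 ± 0.12, n = 3). Phenobarbital controls were at 7.36, 7.69 and 7.64 in replicates 4, 5 and 6 (7.56 ± 0.18, n = 3), all below the untreated controls. The Ctnnb1 tumours spread most, from 5.36 in replicate 5 through a median of 7.23 to 7.65 in replicate 1 (6.99 ± 0.78, n = 7). Replicate 5 stood apart below the next lowest tumour, replicate 4 at 6.75, and replicates 1 and 7 lay among the phenobarbital controls. Ha-ras tumours were at 6.95, 6.71 and 6.50 in replicates 1, 2 and 3 (6.72 ± 0.23, n = 3), inside the range of the Ctnnb1 tumours. The lower levels in tumours could come from fewer cells that make these miRNAs or from less of them per cell, which bulk tissue cannot tell apart.

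The first comparison asked whether tumours with mutated Ctnnb1 differed from phenobarbital control livers. Its arrays are not those of the comparison in which the members were known to be low. The fit still takes its spread from all 16 arrays, those of that comparison included. miR-193 was 1.37-fold lower by mean in the tumours (log2 difference -0.45, SE 0.17, 95% interval -0.82 to -0.09), with 6 of 7 tumours below all 3 controls. In limma's fit over 96 miRNAs the adjusted p = 0.100 missed the threshold of 0.05. It passed with normexp background correction (limma adjusted p = 0.0353), with slide as a random block (limma adjusted p = 0.0272) and without Ctnnb1 tumour replicate 1 (limma adjusted p = 0.0239). The random block left the difference at -0.45, and it cannot take slide out of groups that share no slide. With scaling on every mouse probe, most of which were not detected, the miR-193 difference shrank to -0.27 (limma adjusted p = 0.774). miR-365 had a log2 difference of -0.57 (SE 0.36, 95% interval -1.33 to 0.19), with 5 of 7 tumours below all 3 controls, and a limma adjusted p = 0.360. Without Ctnnb1 tumour replicate 5 the miR-365 difference was -0.30, and with scaling on every mouse probe -0.34 (limma adjusted p = 0.290 and 0.805). So 0 of the 2 tested members passed and 1 had an unadjusted p under 0.05, beside 8.33% of all 96 miRNAs called lower and 0% called higher by limma, and 21 with an unadjusted p under 0.05. Groups did not overlap for 13.5% of the 96 with tumours lower and 1.04% with tumours higher, and for neither member. The median difference of the 96 was -0.05. No slide held both groups, so slide and group cannot be told apart here, except through the Ha-ras tumour on slide 1: with slide as a fixed block the difference was -0.33 for miR-193 and -0.93 for miR-365 (limma adjusted p = 0.821 and 0.766).

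The probes of miR-193 bear on the size of its difference. One of its 2 probes was detected on 16 of 16 arrays and the other on 6 of 16, so that the dim probe sat at or near the floor in most tumours and made the average tumour-minus-control differences smaller than those of the bright probe. By the bright probe alone miR-193 read 8.24, 8.25 and 8.50 in phenobarbital control replicates 4, 5 and 6. In the Ctnnb1 tumours it ran from 6.69 in replicate 5 through a median of 7.71 to 8.16 in replicate 1. All 7 tumours then lay below all 3 controls, as was so for 15.6% of the 96 miRNAs when each was averaged over only its probes detected on all arrays. On that scale miR-193 was 1.63-fold lower (log2 difference -0.71, SE 0.25, 95% interval -1.23 to -0.18, limma adjusted p = 0.0861), still short of the threshold, while 9.38% of the 96 were called lower. This probe choice was made after the values were seen. The 2 probes of miR-365 gave the same difference, -0.57, in this comparison.

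**Figure D2:**
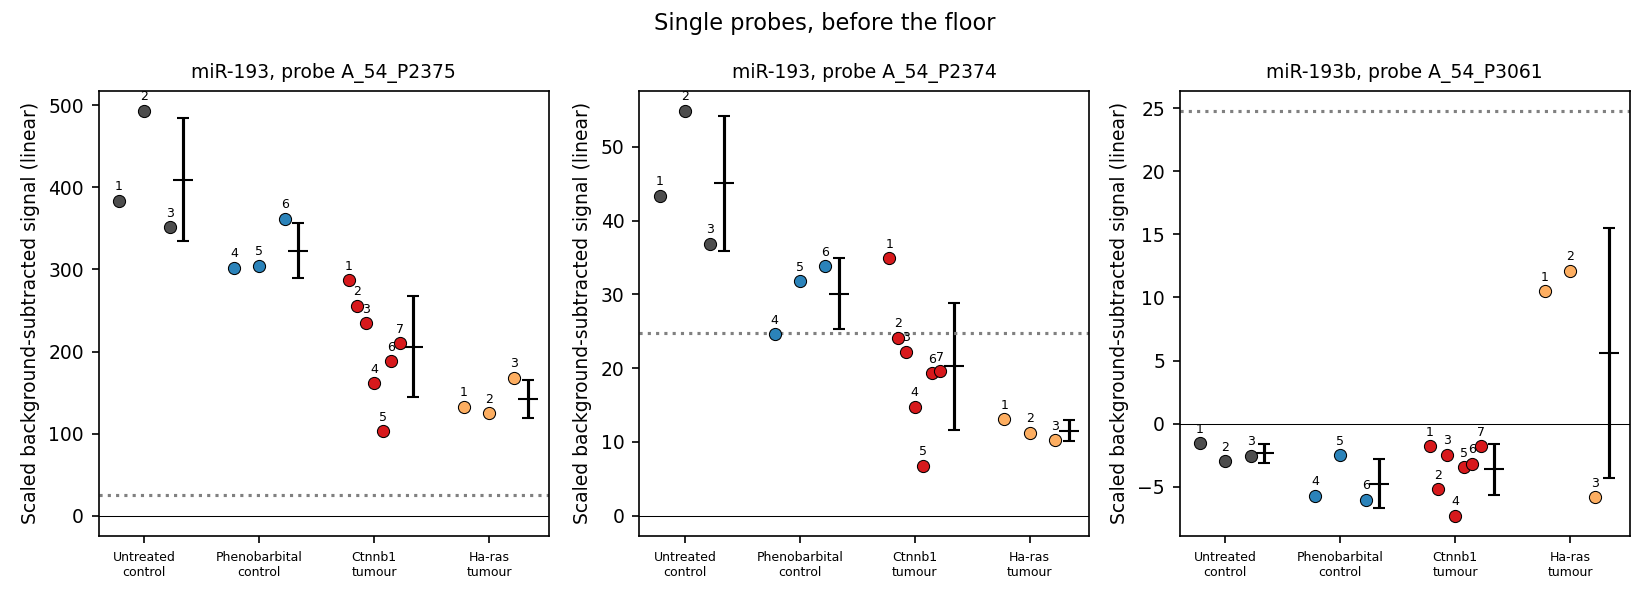
Scaled background-subtracted signal of 3 single probes on each array, on a linear scale before the floor (the dotted line, 24.8); points are arrays numbered by replicate, and bars are the mean ± SD of a group. The bright probe of miR-193 is far above the floor on every array, its dim probe crosses the floor between groups, and the miR-193b probe stays under the floor throughout.

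Between Ha-ras-mutated tumours and untreated controls, the comparison in which the members were known to be low, miR-193 was 2.27-fold lower by mean (log2 difference -1.18, SE 0.20). miR-365 was 2.27-fold lower too (-1.18, SE 0.42). For both miRNAs the 3 tumours lay below the 3 controls, as for 26% of the 96 miRNAs, another 16.7% having all tumours higher. Both tested members were among the 19.8% of miRNAs called lower by limma (29.2% in either direction, 9.38% higher), and nothing is read from either count because this comparison chose the members. These were the third and the fourth lowest differences of the 96, while the median of all was -0.06.

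The single probes gave unequal sizes for miR-193 here. By the bright probe the untreated controls were at 8.58, 8.95 and 8.46 and the Ha-ras tumours at 7.05, 6.96 and 7.39 in replicates 1, 2 and 3. This is a 2.88-fold lower mean (log2 difference -1.53, SE 0.29). The dim probe was detected on all 3 untreated control arrays and on 0 of the 3 tumour arrays, so its difference is only a bound, at least 1.98-fold lower, taken against the lowest signal among detected probes of each tumour array. The 2 probes of miR-365 gave -1.17 and -1.19.

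Scaling moved these sizes. One alternative took the 75th percentile from every mouse probe. Only 11.7% to 16.5% of the non-control spots of an array were well above background, so that percentile lies among signals near background. With it, the median difference of the 96 in this comparison went from -0.06 to 0.28. The calls went from 9 higher and 19 lower to 12 higher and 0 lower. Under it miR-193 stood at -0.84 and miR-365 at -0.61, both still below 0 and below that median. Slide 2 held 2 Ha-ras tumours and 1 untreated control, and within it miR-193 was at -1.11 and miR-365 at -1.41.

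The 2 control groups differ in phenobarbital. Phenobarbital controls were 1.37-fold lower in miR-193 (log2 difference -0.45, SE 0.20) and 1.26-fold lower in miR-365 (-0.34, SE 0.42). The groups did not overlap for either miRNA in the mean of both probes, as for 10.4% of all 96 with phenobarbital controls lower and 14.6% with them higher. By the bright miR-193 probe alone they did overlap, with phenobarbital control replicate 6 at 8.50 and untreated control replicate 3 at 8.46, and the difference was -0.33 (SE 0.29). The dim probe, detected on 1 of 3 phenobarbital control arrays, gave -0.57. The miR-193 difference shrank to -0.18 with normexp and to -0.19 with a doubled floor. Since the untreated control arrays also entered the comparison that chose the members, no test is given for them, and limma called 0 of 96 miRNAs here, with 6 at an unadjusted p under 0.05. In the mean of both probes, the order of group means was kept within slides. On slide 2, with 2 phenobarbital controls and 1 untreated control, the differences were -0.48 for miR-193 and -0.48 for miR-365. On slide 3, with 1 and 2, they were -0.31 and -0.20. The 2 arrays that cross by the bright miR-193 probe, at 8.50 and 8.46, both lay on slide 3.

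Ctnnb1 and Ha-ras tumours, which differ in mutation and in phenobarbital together, overlapped for both miRNAs. miR-193 was higher by 0.28 (SE 0.17) and miR-365 by 0.28 (SE 0.36) in Ctnnb1 tumours. Scaling on every mouse probe brought miR-193 to 0.026 and turned miR-365 to -0.27, while the median of the 96 went from 0.08 to -0.32. limma called 30.2% of the 96 here, 16.7% higher and 13.5% lower, and the groups did not overlap for 12.5% with Ctnnb1 tumours higher and 6.25% with them lower. These values share the Ha-ras arrays with the comparison that chose the members and have no test.

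The tumour-minus-control difference was smaller in the Ctnnb1 arm for both miRNAs. The gap between the 2 arms was 0.73 for miR-193 (SE 0.27) and 0.61 for miR-365 (SE 0.55). It includes the comparison that chose the members and is a description. limma called 2.08% of the 96 for this gap, all of them lower.

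**Figure D3:**
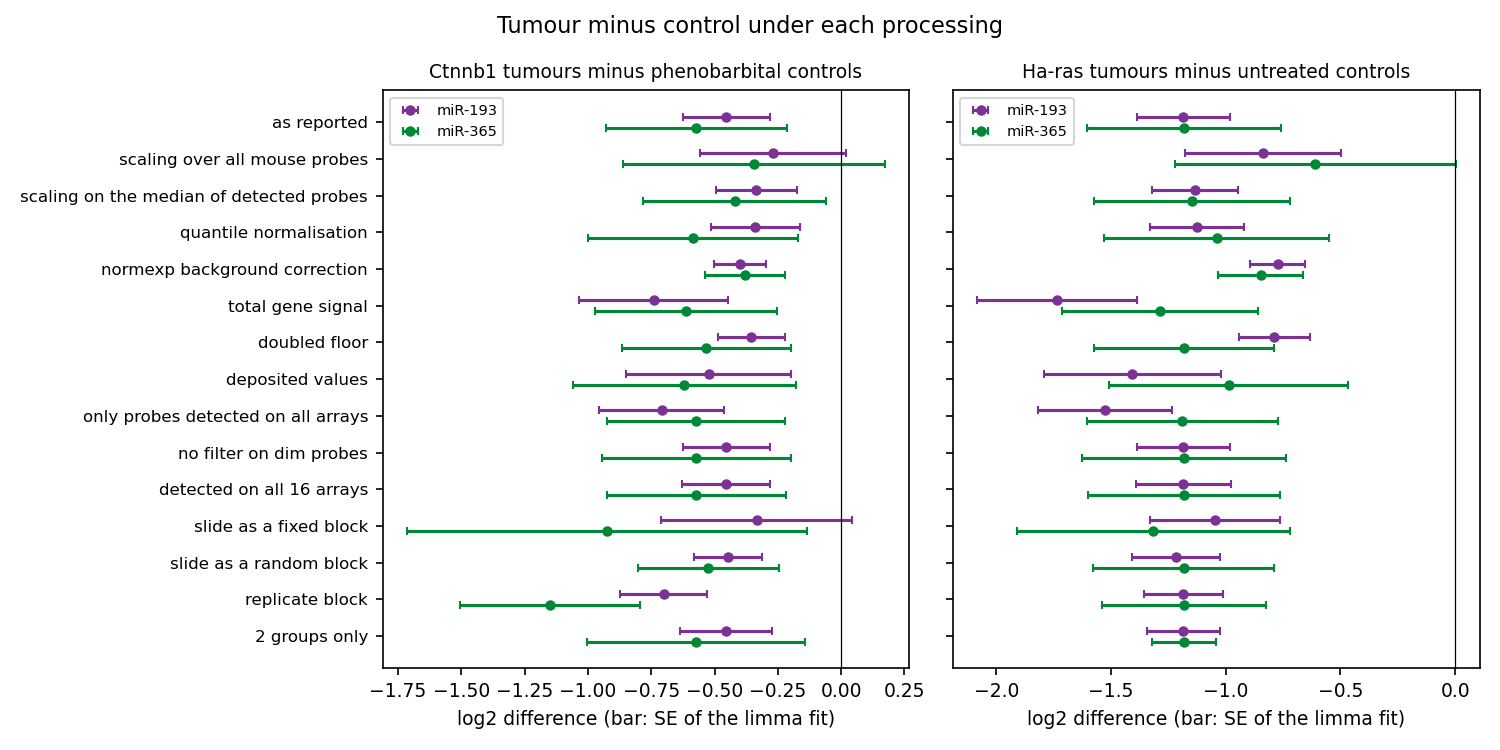
Log2 difference of tumours minus controls for miR-193 and miR-365 in the Ctnnb1 arm (left) and the Ha-ras arm (right) under each way of processing; points are estimates of the limma fit and bars their SE. Every point lies below 0, from -0.27 to -1.15 on the left and from -0.61 to -1.74 on the right.

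Whether the chromosome neighbours miR-193 and miR-365 varied together was asked among the 7 Ctnnb1 tumours, the only group with over 6 arrays. Pearson's r was 0.87 (exact permutation p = 0.00476, two-sided, n = 7) and Spearman's rho was 0.86 (exact permutation p = 0.0238). This was 1 relation tested, so the adjusted value is the same. Without the 2 tumours farthest from the median of miR-193, replicates 5 and 1, r was 0.66 (exact permutation p = 0.225, n = 5), so that the call, though not the sign, rests on those 2 tumours. Without replicate 5 alone it was 0.77 (exact permutation p = 0.0736, n = 6). With miR-193 read by its bright probe alone, r over the 7 tumours was 0.93 (exact permutation p = 0.00476).

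The depth of the arrays moved with these levels. Replicate 5 had the lowest 75th percentile before scaling of the 7 tumours, 463 against 480 to 877, and the fewest miRNAs detected, 95 against 102 to 117. Across the 7 tumours the number detected correlated with the level of miR-193 at r = 0.74 and of miR-365 at r = 0.91. The part of depth in the co-variation was not tested. The arrays of this group also share slide 1.

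With group means taken off, r between miR-193 and miR-365 over all 16 arrays was 0.74, and 0.82 with miR-193 read by its bright probe alone. By the mean of both probes, r was 0.21 over the 9 arrays outside the Ctnnb1 tumours. Over the 15 arrays without Ctnnb1 tumour replicate 5 it was 0.55 by that mean. These values are descriptions, as the arrays share their scaling.

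**Figure D4:**
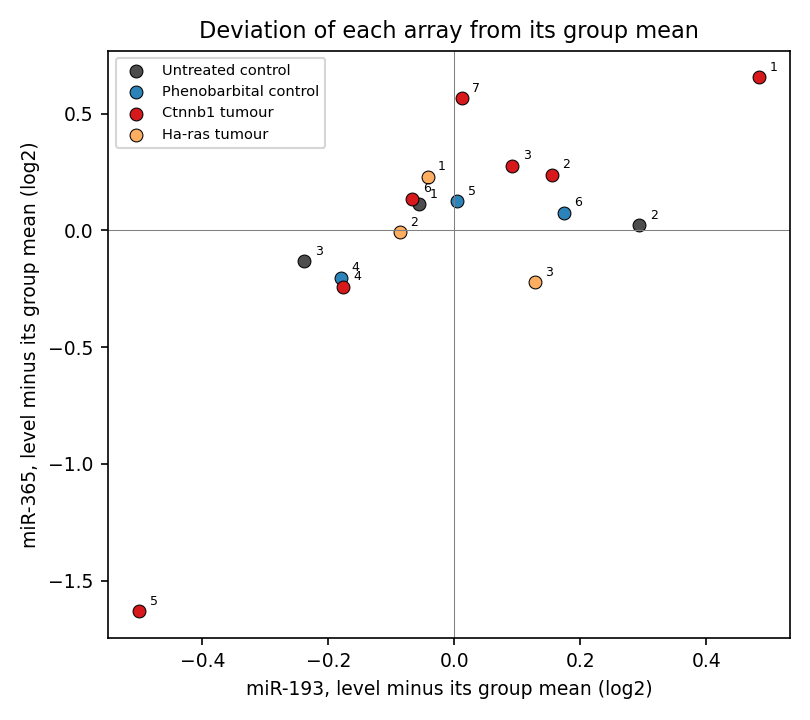
Level of miR-365 against that of miR-193 on each of the 16 arrays, both as log2 differences from the mean of the array's group; colours are groups and numbers are replicates. Ctnnb1 tumour replicate 5 lies far to the lower left and replicate 1 to the upper right.

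Other miRNA genes that lie close together gave a yardstick. Of 13 such pairs, 9 had both partners detected on all 16 arrays. Their group-centred r ran from 0.33 for miR-30b with miR-30d, through a median of 0.75, to 0.96 for the erythroid miR-144 with miR-451. The value of 0.74 for miR-193 with miR-365 lay below 5 of the 9. This placing depends on the dim miR-193 probe, since by the bright probe alone the value was 0.82, above the median of the pairs. In the same list 22 miRNAs were tested. In Ctnnb1 tumours against phenobarbital controls 2 were called lower and 0 higher, beside 8.33% and 0% of all 96. The median was -0.15, against -0.05 over the 96. In Ha-ras tumours against untreated controls 5 were called lower and 2 higher, beside 19.8% and 9.38% of the 96. The median was then -0.25, against -0.06.

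The miRNAs most like each member were sought among the 71 others detected on all 16 arrays. By group-centred Pearson's r, miR-365 was the one most like miR-193 (0.74), followed by let-7g (0.71), let-7a (0.61), let-7d (0.49) and let-7f (0.48), while the median of the 71 was 0.02. For miR-365 the order was let-7f (0.88), let-7a (0.87), let-7d (0.83), miR-193 (0.74) and miR-26b (0.70), with a median of -0.16. let-7 miRNAs are regulators of growth genes. Ctnnb1 tumour replicate 5 was the lowest of the 7 tumours for each of these 7 miRNAs, let-7f standing at 9.44 there against 10.43 in the next lowest. With group means taken off, the number of miRNAs detected on an array correlated with all 7, from 0.50 for miR-26b to 0.75 for miR-365. The part of depth in this likeness was not tested. In Ha-ras tumours against untreated controls let-7f, let-7a, let-7d, miR-26b and let-7g differed by -0.01, -0.05, 0.14, 0.03 and -0.49, against -1.18 for miR-365.

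By levels as they stand, group differences included, miR-193 and miR-365 were each the most alike of the 71 to the other, with Spearman's rho of 0.94 over the 16 arrays. Next for miR-193 came let-7g (0.82), let-7b (0.79), miR-30b (0.79) and miR-199a-3p (0.77). Next for miR-365 came let-7b (0.85), let-7g (0.80), let-7c (0.77) and miR-30b (0.76). The median rho of the 71 was 0.13 for miR-193 and 0.08 for miR-365. Part of this likeness is the group pattern by which the members were chosen.

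Markers of cell types were read beside these levels. A summed level is the log2 of the summed signals of a list, so its brightest miRNAs weigh most. All 8 hepatocyte miRNAs were detected on the 16 arrays, and their summed level ran from 14.55 to 14.66 in untreated controls, 14.33 to 14.79 in Ha-ras tumours, 14.44 to 14.63 in phenobarbital controls and 13.78 to 14.70 in Ctnnb1 tumours, with overlap in both arms. Singly they did not move as 1: tumour-minus-control differences ran from -0.54 (miR-22) to 0.24 (miR-194) in the Ha-ras arm. In the Ctnnb1 arm they ran from -0.57 (miR-101a) to 0.07 (miR-148a). The summed level of the 7 endothelial and mesenchymal miRNAs on the array was 9.62 to 9.96 in untreated controls, 9.35 to 9.64 in Ha-ras tumours, 9.98 to 9.99 in phenobarbital controls and 9.44 to 9.88 in Ctnnb1 tumours, so that it was lower in tumours of both arms, with a small overlap in the Ha-ras arm. Of these 7, miR-145 and miR-214 were detected on no array, and only 3 entered the fit. Those 3, miR-126-3p, miR-143 and miR-199a-3p, differed unequally, by -0.28, -0.31 and -1.16 in the Ctnnb1 arm. In the Ha-ras arm they differed by -0.30, -0.68 and -1.51. The part of these cells in the lower miR-193 and miR-365 was not tested. Striated muscle miRNAs, 4 of 4, were detected on no array, as were 3 of the 5 epithelial ones. The 6 leukocyte miRNAs summed to 8.26 to 9.02 in untreated controls and 7.96 to 9.04 in Ha-ras tumours, and to 8.74 to 8.92 in phenobarbital controls and 8.39 to 9.18 in Ctnnb1 tumours. The 3 erythroid miRNAs summed to 10.33 to 12.29 in untreated controls, 10.53 to 12.40 in Ha-ras tumours, 11.68 to 12.16 in phenobarbital controls and 10.92 to 12.03 in Ctnnb1 tumours, overlapping in both arms.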

How the data were processed

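Spot intensity values were made by the authors with Agilent Feature Extraction 10.7.3.1, per the file headers (protocol miRNA_107_Sep09). Each deposited intensity is background-subtracted and not yet normalised between arrays. The deposited log2 table, whose normalisation the sources used here do not give (the submitters' processing notes name R 2.14.1), served as an alternative. Its scale was read from the values, which rise with a slope of 0.999 on log2 total gene signals. Its handling of low values is unknown.

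Outlier spots were left out and the 6 to 10 remaining spots of each member's probe averaged. No mouse spot was saturated. Each array was scaled to its 75th percentile, taken across 117 mouse probes that all 16 arrays detected, and to the median of these percentiles. Values under the floor were raised to it before log2. Tests covered the 96 miRNAs that all arrays of some group detected, using limma 3.58.1 (R 4.3.3) in 1 fit of 4 group means, with Benjamini-Hochberg adjustment over the 96. The procedure was tested on simulated data. The number of arrays limits the precision.

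The members, lists and tests were chosen with earlier results of these data known. Named were the members, their star strands, the 5 miRNAs most like each member by 2 measures, and miRNAs whose values stand beside a result. Deviations of same-numbered samples of an arm correlated with mixed signs, from -0.77 to 0.58. No pairing was used, though so few samples cannot exclude it. Alternatives covered scaling, background, floor, filter, slide, replicate number, probes and leaving out each array.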

Additional observations from a re-analysis of the deposited data

Results flagged for a closer look

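The level of miR-365 in Ctnnb1 tumour replicate 5, 5.36, stood apart from the other 6 tumours of its group, which lay between 6.75 and 7.65. Its gap to the nearest tumour was 0.61 of the range of the group, above Dixon's 95% critical value for 7 samples, a limit that chance passes for about 1 in 20 groups. Both miR-365 probes were low there, at 5.15 and 5.57. The probe at 5.15 had 50% of its spots well above background on this array, and so was not detected there. The probe at 5.57 had 90% and was detected. miR-193 was also lowest in this tumour (5.66), but its gap was 0.33 of the range. Without this tumour the difference of miR-365 from phenobarbital controls was -0.30 in place of -0.57.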

How the results depend on the processing

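In Ctnnb1 tumours against phenobarbital controls both members stayed below 0 in the reported fit and all 30 alternatives. miR-193 passed the threshold under normexp (-0.40, limma adjusted p = 0.0353), with slide as a random block (-0.45, limma adjusted p = 0.0272) and without Ctnnb1 tumour replicate 1, and shrank to -0.27 (limma adjusted p = 0.774) with scaling over every probe, as did miR-365 to -0.34; leaving out single arrays gave -0.54 to -0.37 for miR-193 and -0.68 to -0.30 for miR-365, which passed in none. Against untreated controls, Ha-ras tumours moved for miR-193 to -0.84 with scaling over every probe, -0.77 with normexp, -1.74 with total gene signal, -0.79 with a doubled floor and -1.53 with probes detected on all arrays, and for miR-365 to -0.61 with scaling over every probe; single arrays left out gave -1.30 to -1.04 and -1.30 to -1.07. The control difference of miR-193 moved to -0.18 with normexp and -0.19 with a doubled floor, and its gap between arms to 0.37 with normexp, 0.99 with total gene signal and 0.43 with a doubled floor. The co-variation r lay between 0.82 and 0.94 under 9 other settings, and between 0.77 (without replicate 5) and 0.93 with single tumours left out. Ctnnb1 tumours and phenobarbital controls share no slide, so slide as a random block cannot take slide out of that comparison. The causes were not tested.

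Of 96 miRNAs, 8 were called in Ctnnb1 tumours against phenobarbital controls, but 0 with scaling over every probe, 4 on the median of detected probes, 4 with normexp, 2 in the deposited values, 4 among miRNAs detected on all 16 arrays, 1 with slide as a fixed block and 20 as a random block. Single arrays left out gave 5 (without phenobarbital control replicate 5 or 6) to 19 (without Ctnnb1 tumour replicate 1). In Ha-ras tumours against untreated controls 28 were called, but 12 with scaling over every probe (12 higher, 0 lower), 18 with normexp, 9 in the deposited values, 9 with slide as a fixed block and 2 within slide 2; quantile normalisation gave 12 higher and 11 lower. Single arrays left out gave 13 (without Ha-ras tumour replicate 1, or without untreated control replicate 2) to 33. Between tumours 29 were called (16 higher, 13 lower), but 15 with normexp, 18 with a doubled floor, 19 among miRNAs on all 16 arrays, 8 with slide as a fixed block, 5 within slide 1 and 13 from those groups alone; scaling over every probe gave 2 higher and 20 lower, and the median of detected probes 22 and 10. Single arrays left out gave 5 (without Ha-ras tumour replicate 2; 9 without replicate 1) to 29. Between controls 0 were called, 5 in the deposited values and 0 to 2 with single arrays left out (2 without untreated control replicate 1, 1 without replicate 3). For the gap between arms 2 were called, 1 with normexp, total gene signal or the deposited values, 0 among miRNAs on all 16 arrays, 4 with slide as a random block and 2 to 5 with single arrays left out (5 without untreated control replicate 1).

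With the replicate number as a block, the Ctnnb1 arm gave -0.70 for miR-193 (limma adjusted p = 0.0888) and -1.15 for miR-365 (limma adjusted p = 0.112), with 2 miRNAs called, and the Ha-ras arm -1.18 for both, with 14 called. The gap between arms was then 0.48 for miR-193 and 0.032 for miR-365, with 4 called. Same-numbered samples correlated in their deviations between -0.77 and 0.24 in the Ctnnb1 arm and between -0.68 and 0.58 in the Ha-ras arm, so the numbers were not taken as pairs. With so few samples this check cannot exclude pairing. A fit within 1 slide was not run for Ctnnb1 tumours against phenobarbital controls, which share none. Signal over background limits miR-193b and the dim miR-193 probe to bounds, and the dimmer miR-365 probe was not detected in Ctnnb1 tumour replicate 5.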
